A study of Mus musculus with 10 samples.

Results

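The interferon response and the sensing of nucleic acids were followed through 43 genes in sorted mouse cardiomyocytes, the muscle cells that make the heart contract. The list was drawn up by function, with earlier results of these data known. It covers RNA and DNA sensors with their adaptors, interferon receptors, STAT and IRF factors, and interferon-stimulated genes. By gene symbol, 42 of the 43 were found among the 23337 genes of the table. Ifi27 was listed under its older symbol Ifi27l1. It is described separately and enters no count.

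Wild-type mice were injected on postnatal day 1 with 5e+08 viral genomes per gram, and cells were collected on postnatal day 14 by collagenase perfusion and fluorescence-activated sorting. The GFP group received AAV9-cTNT-GFP and the dnMKL1 group received AAV9-cTNT-dnMKL1-GFP, with 5 libraries in each, called biological replicates in the study's design text. Both groups thus carried an AAV9 vector and GFP, and cells without a vector were not analysed here. The cTNT promoter is that of cardiac troponin T and confines expression largely to heart muscle cells. MKL1 is a coactivator of serum response factor, and dnMKL1 is its dominant-negative form.

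Cells detect viral RNA with cytoplasmic helicases that signal through the mitochondrial protein MAVS and with endosomal Toll-like receptors, and they detect misplaced DNA with an enzyme that signals through STING. These routes activate IRF factors, which switch on interferon genes. Type I interferon binds the IFNAR receptor, and a complex that holds STAT2 and IRF9 then binds interferon-stimulated response elements (ISREs) in front of interferon-stimulated genes, among which are several of the sensors themselves.

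Among the members tested, the interferon-stimulated genes Ifit1, Isg15, Ifi44 and Ifit3 had the largest fold changes and were higher with dnMKL1, while the adaptor Mavs was lower. Of the 39 members that received an adjusted p-value, 16 were higher and 1 was lower at a value under 0.05. Over all 14056 genes tested in the authors' deposited table, 16.6% were higher and 17.4% were lower. Among all 42 members, 37 log2 fold changes were above 0 and 5 were below, with a median of 0.58. Over the 17371 genes with a fold change, 53.3% were above 0 and the median was 0.038. The 22 other members tested did not pass the threshold. Mx1, Ifitm1 and Zbp1, with base means under 1.31 normalized counts, received no adjusted p-value.

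**Figure D1:**
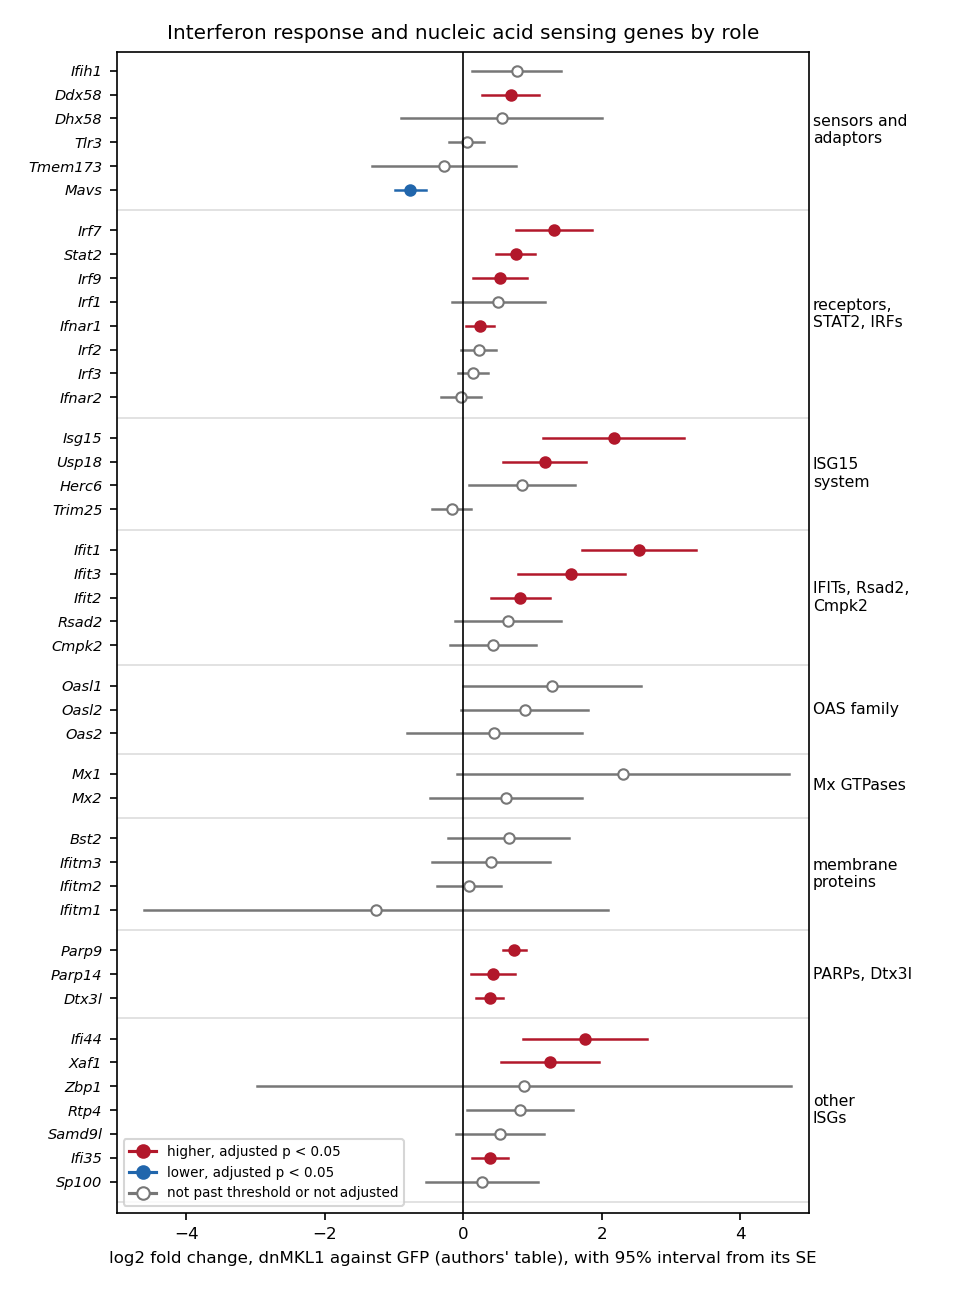
Log2 fold change of each of the 42 members (horizontal axis, dnMKL1 against GFP, positive for higher with dnMKL1), grouped by role, with its 95% interval from the deposited standard error. The 16 filled red points are higher and the filled blue point, Mavs, is lower at an adjusted p-value under 0.05; open points did not pass or had no adjusted p-value, and 37 of the 42 points lie right of 0.

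The table holds the authors' comparison of the groups and not the value of each library. Levels are therefore given as the group means implied by the base mean, which is the mean normalized count over all libraries, and by the fold change. Whether single libraries of the groups overlap cannot be read from it. The error of a difference is its deposited standard error (SE), which includes the spread between libraries. The smallest Wald statistic (fold change over SE) past the threshold was 2.39 in size.

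Promoters are shown for the 4 members with the smallest adjusted p-values among those with an ISRE-type motif, searched on both strands as GAAA, any 2 bases, and GAAA. They are RefSeq sequences on GRCm38.p6, the assembly of the mm10 build, and cover the 250 bases before an annotated start site, read 5′ to 3′ on the strand of the gene, with the motif in capitals. The windows are chr19:34640639-34640888 (plus strand) for Ifit1, chr10:128270248-128270497 (plus strand) for Stat2, chr4:156200819-156201068 (minus strand) for Isg15 and chr19:34583279-34583528 (plus strand) for Ifit3, whose start site here lies inside the annotated span of the gene.
Ifit1 promoter: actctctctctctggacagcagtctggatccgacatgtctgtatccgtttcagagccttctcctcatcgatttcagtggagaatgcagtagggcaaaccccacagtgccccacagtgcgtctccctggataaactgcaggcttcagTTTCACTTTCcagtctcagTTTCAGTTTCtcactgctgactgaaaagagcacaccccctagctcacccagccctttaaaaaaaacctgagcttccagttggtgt
Stat2 promoter: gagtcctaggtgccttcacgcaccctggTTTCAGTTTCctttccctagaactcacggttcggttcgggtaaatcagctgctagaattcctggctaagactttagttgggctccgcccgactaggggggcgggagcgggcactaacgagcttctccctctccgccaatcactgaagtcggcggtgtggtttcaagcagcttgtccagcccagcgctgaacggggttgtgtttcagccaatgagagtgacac
Isg15 promoter: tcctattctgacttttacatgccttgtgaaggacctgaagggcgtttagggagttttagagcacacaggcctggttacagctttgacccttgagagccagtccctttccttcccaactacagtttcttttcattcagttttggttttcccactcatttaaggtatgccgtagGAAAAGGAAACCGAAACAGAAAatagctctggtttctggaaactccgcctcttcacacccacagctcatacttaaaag
Ifit3 promoter: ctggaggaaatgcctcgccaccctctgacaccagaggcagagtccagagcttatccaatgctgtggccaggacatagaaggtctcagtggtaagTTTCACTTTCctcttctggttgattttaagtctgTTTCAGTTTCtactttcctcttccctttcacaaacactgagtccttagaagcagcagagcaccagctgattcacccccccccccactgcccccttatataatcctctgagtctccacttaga

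Counted from the start site, the Ifit1 matches ran from -104 to -95 and from -85 to -76, and the Ifit3 matches from -156 to -147 and from -122 to -113. The Stat2 match ran from -222 to -213. In Isg15, 3 matches overlapped in a single run from -78 to -57. In windows of 300 bases, which include the first 50 transcribed bases, 11 of the 32 members with a RefSeq promoter entry held the motif, as did 3.99% of all 27025 genes with an entry. Of these 11, the 5 that were higher with dnMKL1 were Ddx58, Stat2, Isg15, Ifit1 and Ifit3. Ifih1, Irf2, Rsad2, Bst2, Ifitm2 and Ifitm3 held the motif and did not pass the threshold. Of the 21 members without it, 8 were higher. Among all 360 tested genes that held the motif, 18.3% were higher, as were 17.0% of the 9571 tested genes with an entry but without the motif. Usp18, Parp9 and Parp14, which were also higher, had no entry and were not searched. A motif bound by STAT dimers, searched as TTC, any 3 bases, and GAA, which covers both strands, occurred in 8 of the 32 members and in 9.55% of all genes with an entry. These matches describe the letters of the windows, and binding was not measured.

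Of the 6 sensors and adaptors, 1 was higher and 1 was lower, close to the shares over all genes. Those shares, 16.6% higher and 17.4% lower, also stand beside the counts of the role groups below. Ddx58 encodes RIG-I, a helicase that senses short double-stranded RNA ends, and its implied means were 66.8 normalized counts with GFP and 107 with dnMKL1. In the authors' deposited table its log2 fold change stood at 0.69 (SE 0.21, adjusted p = 0.00539), so that it was higher. Ifih1 encodes MDA5, the helicase for long double-stranded RNA, and had implied means of 27.8 and 47.5 normalized counts. Its log2 fold change of 0.77 (SE 0.33, adjusted p = 0.0518) in the authors' deposited table was similar in size to that of Ddx58 and lay just outside the threshold. Dhx58, a regulator of both helicases, was low, with implied means of 4.36 and 6.40 and a log2 fold change of 0.55 (SE 0.74, adjusted p = 0.635) in the authors' deposited table. Tlr3, the endosomal receptor for double-stranded RNA, had implied means of 106 and 110. Its log2 fold change was 0.053 (SE 0.13, adjusted p = 0.811) in the authors' deposited table, with a 95% interval from -0.20 to 0.31.

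Mavs, the mitochondrial adaptor that relays the signal of both helicases, was the one member that was lower. It was also the most abundant member per length, at 464 normalized counts per kilobase of its longest transcript. Its implied means were 1786 normalized counts with GFP and 1052 with dnMKL1, and the authors' deposited table gave a log2 fold change of -0.76 (SE 0.12, adjusted p = 9.4e-10). STING, the adaptor of DNA sensing, is encoded by Tmem173, with implied means of 19.8 and 16.3 normalized counts. Its log2 fold change was -0.28 (SE 0.53, adjusted p = 0.752) in the authors' deposited table, with an interval from -1.32 to 0.76. Cgas, the DNA sensor upstream of STING and not a member, was listed under the older symbol E330016A19Rik with a base mean of 4.58 and a log2 fold change of 0.0016 (SE 0.79, adjusted p = 0.999) in the authors' deposited table.

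Of the 8 receptor, STAT and IRF genes, 4 were higher and 0 were lower. Ifnar1 and Ifnar2 encode the chains of the type I interferon receptor. For Ifnar1 the implied means were 638 normalized counts with GFP and 758 with dnMKL1. It was higher by a narrow margin, with a log2 fold change of 0.25 (SE 0.10, adjusted p = 0.0479) in the authors' deposited table. When the adjustment ran over every deposited p-value, its adjusted p was 0.0591. For Ifnar2 the implied means were 389 and 382 normalized counts, and the authors' deposited table gave -0.027 (SE 0.15, adjusted p = 0.921) on the log2 scale, with an interval from -0.31 to 0.26.

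Stat2 and Irf9, which encode parts of the ISRE-binding complex, were both higher. The implied means of Stat2 were 112 normalized counts with GFP and 190 with dnMKL1, with a log2 fold change of 0.76 (SE 0.14, adjusted p = 9.3e-07) in the authors' deposited table. Irf9 had implied means of 171 and 247 and a log2 fold change of 0.53 (SE 0.20, adjusted p = 0.0233) in the authors' deposited table.

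Irf7, which drives interferon genes and is itself induced by interferon, had the largest fold change of the IRF members. Its implied means were 24.4 normalized counts with GFP and 60.6 with dnMKL1, and its log2 fold change was 1.31 (SE 0.28, adjusted p = 2.8e-05) in the authors' deposited table. Irf3, which acts early and is present before a stimulus, had implied means of 195 and 216 and a log2 fold change of 0.14 (SE 0.11, adjusted p = 0.352) in the authors' deposited table. Irf2, known as an antagonist of Irf1, had implied means of 117 and 136 and a log2 fold change of 0.22 (SE 0.13, adjusted p = 0.183) in the authors' deposited table. Neither of these passed the threshold, and their intervals ran from -0.074 to 0.36 and from -0.030 to 0.47. Irf1 had implied means of 59.3 and 84.2, with 0.51 (SE 0.34, adjusted p = 0.272) in the authors' deposited table. Exons of Irf3, Irf7 and Irf9 share 88, 45 and 123 bases with exons of Bcl2l12, Phrf1 and Rnf31, and how reads there were counted is not known. The adjusted p-values of these neighbours were 0.693, 0.378 and 0.780 in the authors' deposited table.

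ISG15 is a ubiquitin-like protein that is attached to other proteins during the response, and 2 of the 4 genes of its system were higher. Isg15 rose from an implied mean of 3.81 normalized counts with GFP to 17.2 with dnMKL1, a log2 fold change of 2.17 (SE 0.52, adjusted p = 2.0e-04) in the authors' deposited table. Its level with GFP was only just above 3 normalized counts. Usp18, the protease that removes ISG15 and also restrains the receptor, had implied means of 29.6 and 67.1. It was higher, at 1.18 (SE 0.31, adjusted p = 7.2e-04) in the authors' deposited table. Herc6, the main ISG15 ligase of the mouse, had implied means of 12.1 and 21.9 and did not pass, at 0.85 (SE 0.39, adjusted p = 0.0759) in the authors' deposited table. Trim25, a ubiquitin ligase that acts on RIG-I, had implied means of 270 and 240. Its log2 fold change was -0.17 (SE 0.14, adjusted p = 0.399) in the authors' deposited table, with an interval from -0.44 to 0.11. The enzymes that activate and carry ISG15 are encoded by Uba7 and Ube2l6, which are not members. Both were higher, at 0.85 (SE 0.13, adjusted p = 1.4e-09) and 2.33 (SE 0.65, adjusted p = 0.00160) in the authors' deposited table. The SE of Ube2l6 was 4.66 times the median SE of the 200 genes nearest to it in base mean. This was the largest such ratio among the other pathway genes, so its value is uncertain.

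The IFIT proteins bind foreign RNA and hinder its translation, and all 3 members of the family were higher. Ifit1 had the largest fold change of the 42 members. Its implied means were 12.2 normalized counts with GFP and 71.3 with dnMKL1, and the authors' deposited table gave a log2 fold change of 2.54 (SE 0.42, adjusted p = 2.9e-08), with an interval from 1.72 to 3.37. Ifit3 had implied means of 7.19 and 21.3 and a log2 fold change of 1.56 (SE 0.39, adjusted p = 4.3e-04) in the authors' deposited table. Ifit2, the most abundant of the family per length at 35.9 normalized counts per kilobase, had implied means of 98.7 and 175. In the authors' deposited table it was higher, at 0.83 (SE 0.22, adjusted p = 9.0e-04). The genes lie in a cluster, at chr19:34550550-34576534 for Ifit2, chr19:34583119-34588982 for Ifit3 and chr19:34640889-34650009 for Ifit1. Ifit3b, a near copy of Ifit3, was listed as I830012O16Rik at 2.18 (SE 0.57, adjusted p = 7.9e-04) in the authors' deposited table. How reads were divided between such copies is not known, so the Ifit3 value is uncertain in this respect.

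Rsad2 encodes the antiviral enzyme viperin and Cmpk2, its neighbour in the genome, a nucleotide kinase. Rsad2 had implied means of 73.9 normalized counts with GFP and 116 with dnMKL1, close to the levels of Ddx58, and a similar log2 fold change of 0.65 (SE 0.39, adjusted p = 0.203) in the authors' deposited table. Its SE was the larger of the pair, and it did not pass the threshold. Cmpk2 had implied means of 42.8 and 57.7 and did not pass either, at 0.43 (SE 0.31, adjusted p = 0.313) in the authors' deposited table.

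The OAS family senses double-stranded RNA, and the Mx GTPases trap viral components. Oas2, Oasl1 and Oasl2 were low, with implied means of 5.44, 4.28 and 15.7 normalized counts with GFP and 7.45, 10.4 and 29.1 with dnMKL1. Their log2 fold changes in the authors' deposited table were 0.45 (SE 0.65), 1.29 (SE 0.66) and 0.89 (SE 0.47). Of the 3, 0 passed the adjusted threshold of the authors' DESeq2 test and 1 had an unadjusted p-value under 0.05. Mx2 had implied means of 6.44 and 9.86 and a log2 fold change of 0.62 (SE 0.56, adjusted p = 0.446) in the authors' deposited table. Mx1 was under 3 normalized counts in both groups, so that no fold is given.

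BST2 and the IFITM proteins act at membranes, on the release and the entry of viruses. Of these 4 genes, 0 passed the threshold of the authors' DESeq2 test and 0 had an unadjusted p-value under 0.05. Ifitm3 reached 169 normalized counts per kilobase and Ifitm2 123. The implied means of Ifitm3 were 98.5 normalized counts with GFP and 130 with dnMKL1, and its log2 fold change of 0.40 (SE 0.43, adjusted p = 0.534) in the authors' deposited table had an interval from -0.44 to 1.25. Ifitm2 had implied means of 78.3 and 82.8 and a log2 fold change of 0.080 (SE 0.24, adjusted p = 0.850) in the authors' deposited table. For Bst2 the implied means were 21.5 and 33.9, with 0.66 (SE 0.45, adjusted p = 0.269) in the authors' deposited table. Ifitm1 was under 3 normalized counts in both groups.

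Parp9, Parp14 and Dtx3l, neighbours on chromosome 16, were all 3 higher. PARP9 and PARP14 belong to the ADP-ribosyltransferase family, and DTX3L is a ubiquitin ligase that forms a complex with PARP9. Parp9 had the smallest adjusted p-value of the members, with implied means of 278 normalized counts with GFP and 464 with dnMKL1. The change was 0.74 (SE 0.083, adjusted p = 8.9e-17) on the log2 scale in the authors' deposited table. Dtx3l had implied means of 419 and 547 and a log2 fold change of 0.38 (SE 0.10, adjusted p = 5.4e-04) in the authors' deposited table. Parp14 had implied means of 70.6 and 95.1 and a log2 fold change of 0.43 (SE 0.16, adjusted p = 0.0289) in the authors' deposited table. Parp9 (chr16:35938470-35972621) and Dtx3l (chr16:35926515-35939027) lie on opposite strands and share 458 exon bases. The strand setting of the counting is not given in the sources used here, so reads from that stretch may not be told apart.

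Of the 7 remaining interferon-stimulated genes, 3 were higher. Ifi44 had implied means of 7.52 normalized counts with GFP and 25.4 with dnMKL1, with a log2 fold change of 1.76 (SE 0.46, adjusted p = 7.2e-04) in the authors' deposited table. Xaf1, which encodes a partner of the apoptosis inhibitor XIAP, had implied means of 16.5 and 39.4 and a log2 fold change of 1.25 (SE 0.36, adjusted p = 0.00253) in the authors' deposited table. Ifi35 was the most abundant of the 7, with implied means of 154 and 202, and was higher at 0.39 (SE 0.13, adjusted p = 0.0123) in the authors' deposited table. Rtp4, Samd9l and Sp100 did not pass the threshold. Their log2 fold changes in the authors' deposited table were 0.82 (SE 0.39, adjusted p = 0.0900), 0.53 (SE 0.32, adjusted p = 0.207) and 0.27 (SE 0.41, adjusted p = 0.685). Zbp1, a sensor of left-handed nucleic acid helices, was under 3 normalized counts in both groups. Ifi27, under its older symbol, had implied means of 130 and 206 and a log2 fold change of 0.66 (SE 0.28) in the authors' deposited table, with an adjusted p of 0.0503, just outside the threshold.

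**Figure D2:**
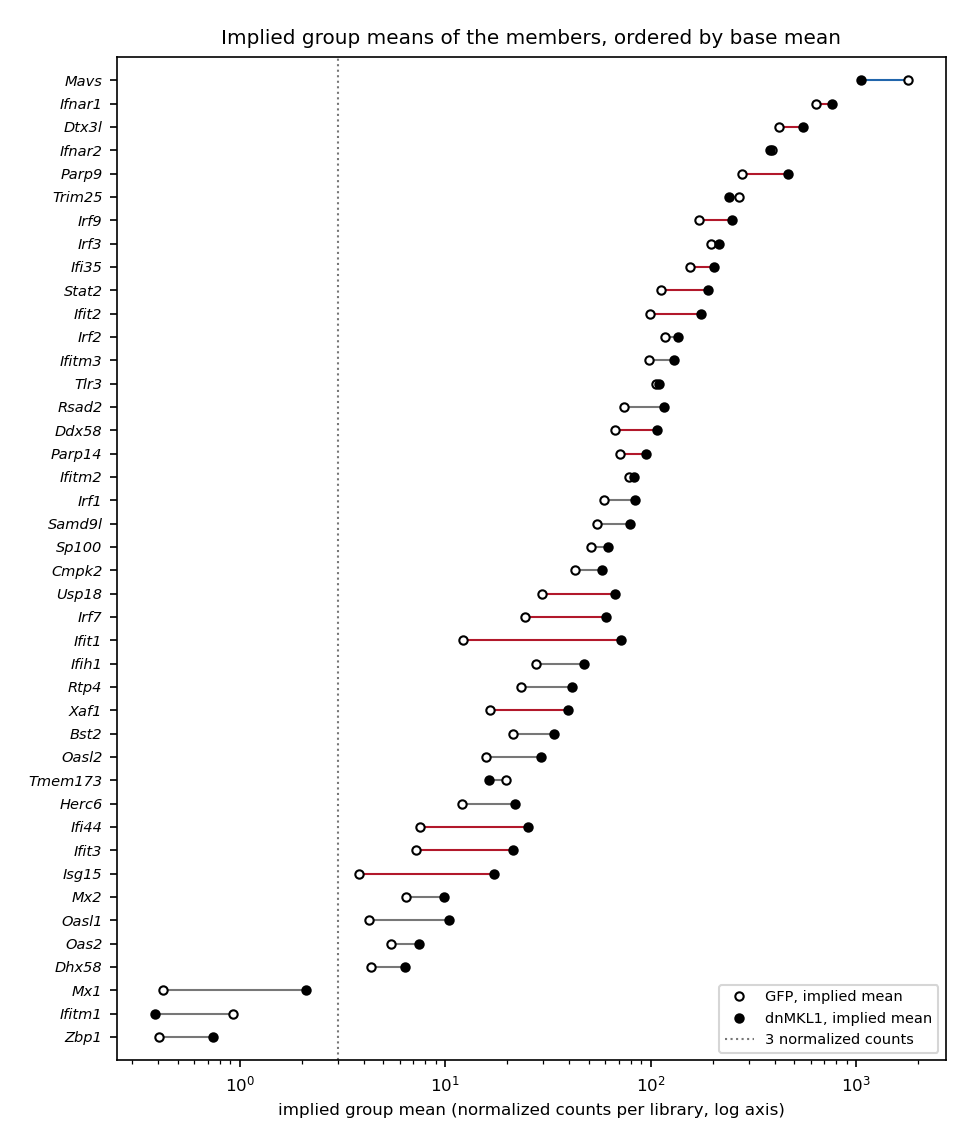
Implied group means of the 42 members in normalized counts per library (horizontal log axis), ordered by base mean, with open points for GFP and filled points for dnMKL1. Red lines join the means of higher members, the blue line those of Mavs and grey lines those not called; Ifit1 runs from 12.2 to 71.3 and Mavs from 1786 to 1052, and Mx1, Ifitm1 and Zbp1 lie left of the dotted line at 3.

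By abundance, the higher members had base means between 10 and 1000 normalized counts, and the lower one lay above. Of the 7 members with a base mean under 10 normalized counts, 4 were tested. Of these, 0 passed the adjusted threshold of the authors' DESeq2 test, where 5.84% of the 2142 genes tested in that range were higher. Without adjustment, 1 of the 4, Oasl1, had a p-value under 0.05 in that test. Between 10 and 100, 9 of 21 members were higher, with a median log2 fold change of 0.77. In that range 19.0% of the 3273 genes tested were higher, with a median of 0.14. Between 100 and 1000, 7 of 13 members were higher, with a median of 0.38. Of the 6515 genes tested there, 20.0% were higher, with a median of 0.0076. Between 1000 and 10000, Mavs was the only member. In that range 40.1% of the 1986 genes tested were lower, with a median log2 fold change of -0.13, against -0.76 for Mavs in the authors' deposited table.

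The scale chosen for the groups sets where 0 lies. Summed over all genes, the implied means came to 13330302 for GFP and 10915829 for dnMKL1. Giving both groups the same total adds 0.29 to every log2 fold change. A Wald test on that scale called 28 of the 39 members higher and 1 lower, where 40.4% of all genes tested were higher and 6.60% lower. The 16 members called higher on the authors' scale were among the 28, and the other 12 were Ifih1, Tlr3, Irf1, Irf2, Irf3, Herc6, Rsad2, Cmpk2, Oasl1, Oasl2, Rtp4 and Samd9l. Mavs was lower on both scales, with a log2 fold change of -0.47 (adjusted p = 1.8e-04, Wald test) at the same total.

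The SE of each gene was set against the median SE of the 200 genes nearest to it in base mean, as a measure of its spread. The ratio was above 1 for 31 of the 42 members, with a median of 1.16. It was lowest for Parp9, at 0.741, and highest for Ifitm3 (2.62), Rsad2 (2.20), Irf1 (1.83) and Sp100 (1.80), none of which passed the threshold. Among the members that were higher, Ifit1 (1.66) and Irf9 (1.56) had the largest ratios. Endothelial markers had ratios from 1.56 to 3.91 and fibroblast markers from 0.842 to 2.09. The part of other cell types in the SEs of the members was not tested.

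**Figure D3:**
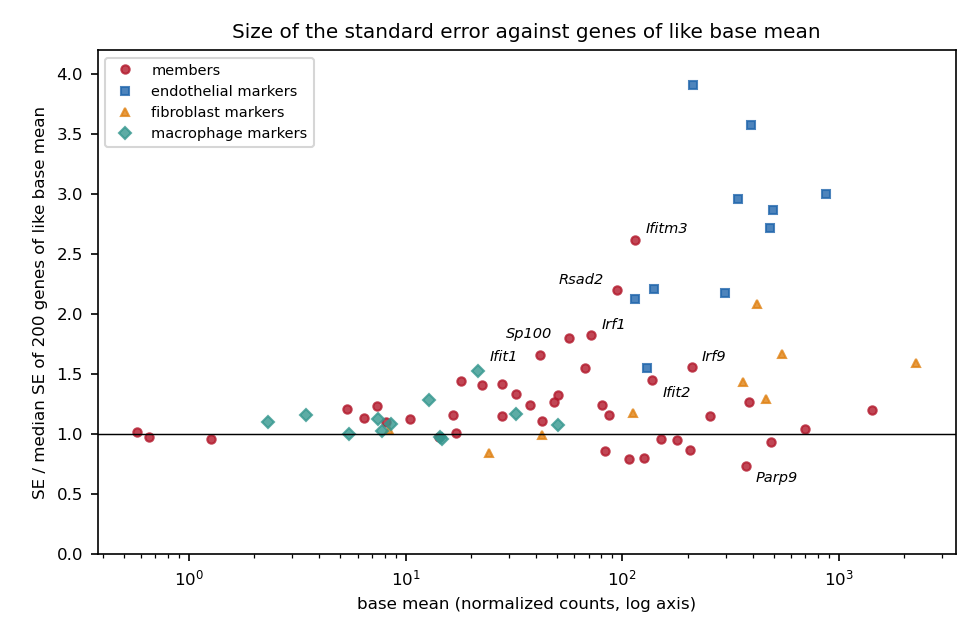
Standard error of each gene divided by the median standard error of the 200 genes of like base mean (vertical axis), against base mean in normalized counts (horizontal log axis), for the members and for endothelial, fibroblast and macrophage markers. Ifitm3, at 2.62, lies highest among the members and Parp9, at 0.741, lowest, and all 10 endothelial markers lie above 1.

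Cell type markers were read beside the members, since many cell types express interferon-stimulated genes. The shares over all genes tested, 16.6% higher and 17.4% lower, also stand beside the counts of markers here. The 8 cardiomyocyte markers had base means from 10438 to 594986 normalized counts, and 6 of them were lower. Among all genes tested with base means from 1000 to 10000, 40.1% were lower, and the share above that range is not given. Summed implied means of the 12 macrophage markers were 194 normalized counts with GFP and 169 with dnMKL1, with base means from 2.32 to 50.3. Cd68 was higher and the other 11 were not called. Lymphocyte markers were at or near 0, with 5 of 11 listed at 0 (Cd3e, Nkg7, Klrb1c, Gzma and Gzmb) and sums of 3.98 and 5.16. The 5 neutrophil markers summed to 1.71 and 1.40, with S100a8 and Cxcr2 listed at 0. Of the 7 plasmacytoid dendritic cell markers, Tcf4 was higher, and the sums were 634 and 949, or 36.7 and 51.9 without Tcf4. Base means in this list were 27.7 for Bst2, which is itself a member, 12.0 for Irf8, 3.46 for Ccr9, 0.944 for Ly6d, 0.124 for Siglech and 0.0778 for Flt3. The 10 endothelial markers summed to 3422 and 3548, and 0 passed the threshold of the authors' DESeq2 test or had an unadjusted p-value under 0.05. Of the 9 fibroblast markers 3 were higher, with sums of 3561 and 4939. Of the 7 mural markers 2 were higher (Cspg4 and Myh11) and 1 lower (Acta2), with sums of 11876 and 8098. Without Acta2 the other 6 had positive fold changes, and their sums were 1422 and 3100. Cspg4 alone had implied means of 501 with GFP and 2019 with dnMKL1, and Pdgfrb, Rgs5, Kcnj8 and Notch3 did not pass the threshold. Acta2 and Tcf4 were left out of these sums after their values were seen. The part of these cells in the values of the members was not tested. In bulk RNA, more cells of a type and more RNA per cell cannot be told apart.

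Other genes of the pathway came from 6 lists with 143 genes in the table. All 10 interferon genes on them were listed at 0, among them Ifnb1, Ifna4, Ifng, Ifnl2 and Ifnl3. Of the 115 other pathway genes tested, 29 (25.2%) were higher and 10 were lower, where 16.6% and 17.4% of all genes tested were. The median log2 fold change of the 129 with one was 0.31. Of 37 further interferon-stimulated genes tested, 12 were higher and 3 were lower. Pml, which organizes nuclear bodies, was higher at 0.82 (SE 0.12, adjusted p = 9.6e-10) in the authors' deposited table. Tor3a and Tdrd7 were higher at 1.12 (SE 0.17, adjusted p = 2.5e-09) and 0.88 (SE 0.14, adjusted p = 1.5e-08) in the authors' deposited table. Pnpt1, which encodes a mitochondrial RNA exonuclease, and Nt5c3, which encodes a nucleotidase, were lower at -0.61 (SE 0.12, adjusted p = 3.7e-06) and -0.30 (SE 0.087, adjusted p = 0.00257) in the authors' deposited table.

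Of 29 other sensing genes tested, 7 (24.1%) were higher and 2 were lower, against 16.6% and 17.4% of all genes tested. Ticam1 and Myd88, which encode the adaptors of Toll-like receptors, were higher at 0.72 (SE 0.14, adjusted p = 4.1e-06) and 0.52 (SE 0.11, adjusted p = 2.8e-05) in the authors' deposited table. Zc3hav1, whose product binds viral RNA, was higher at 0.61 (SE 0.15, adjusted p = 4.1e-04) in the authors' deposited table. Nlrc3, known as a negative regulator of STING, had implied means of 11.7 normalized counts with GFP and 67.1 with dnMKL1. Its log2 fold change was 2.52 (SE 0.50, adjusted p = 4.4e-06) in the authors' deposited table. The most abundant genes of this list were Tax1bp1, at 0.15 (SE 0.076, adjusted p = 0.122), and Azi2, which was lower at -0.24 (SE 0.090, adjusted p = 0.0265) in the authors' deposited table.

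Of 16 other signalling genes, 4 (25%) were higher and 3 were lower, against 16.6% and 17.4% of all genes tested. Tyk2, a kinase bound to IFNAR1, and the phosphatase gene Ptpn6 were higher at 0.44 (SE 0.092, adjusted p = 1.3e-05) and 0.93 (SE 0.25, adjusted p = 0.00104) in the authors' deposited table. Il10rb and Ifngr2, which encode chains of the receptors for lambda and gamma interferon, were lower at -0.48 (SE 0.085, adjusted p = 3.3e-07) and -0.49 (SE 0.11, adjusted p = 9.2e-05) in the authors' deposited table. Stat3 did not pass, at 0.16 (SE 0.081, adjusted p = 0.112) in the authors' deposited table.

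Guanylate-binding proteins and immunity-related GTPases are typical of the response to interferon gamma. On their list 2 of 16 genes tested (12.5%) were higher and 0 were lower, against 16.6% and 17.4% of all genes tested. The higher ones were Gbp6 and Iigp1, at 1.57 (SE 0.26, adjusted p = 2.1e-08) and 0.87 (SE 0.27, adjusted p = 0.00478) in the authors' deposited table. Irgm2, abundant on this list, did not pass, at 0.21 (SE 0.21, adjusted p = 0.492) in the authors' deposited table. Of 17 genes of MHC class I presentation tested, 4 (23.5%) were higher and 2 were lower, beside the same shares over all genes. Tap1 and Tap2, which encode the peptide transporter, were higher at 1.96 (SE 0.29, adjusted p = 2.7e-10) and 0.54 (SE 0.15, adjusted p = 0.00141) in the authors' deposited table. Tapbp and B2m were higher at 0.64 (SE 0.054, adjusted p = 3.6e-29) and 0.89 (SE 0.31, adjusted p = 0.0141) in the authors' deposited table. Psme1, a proteasome activator gene, was lower at -0.42 (SE 0.092, adjusted p = 5.2e-05) in the authors' deposited table.

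**Figure D4:**
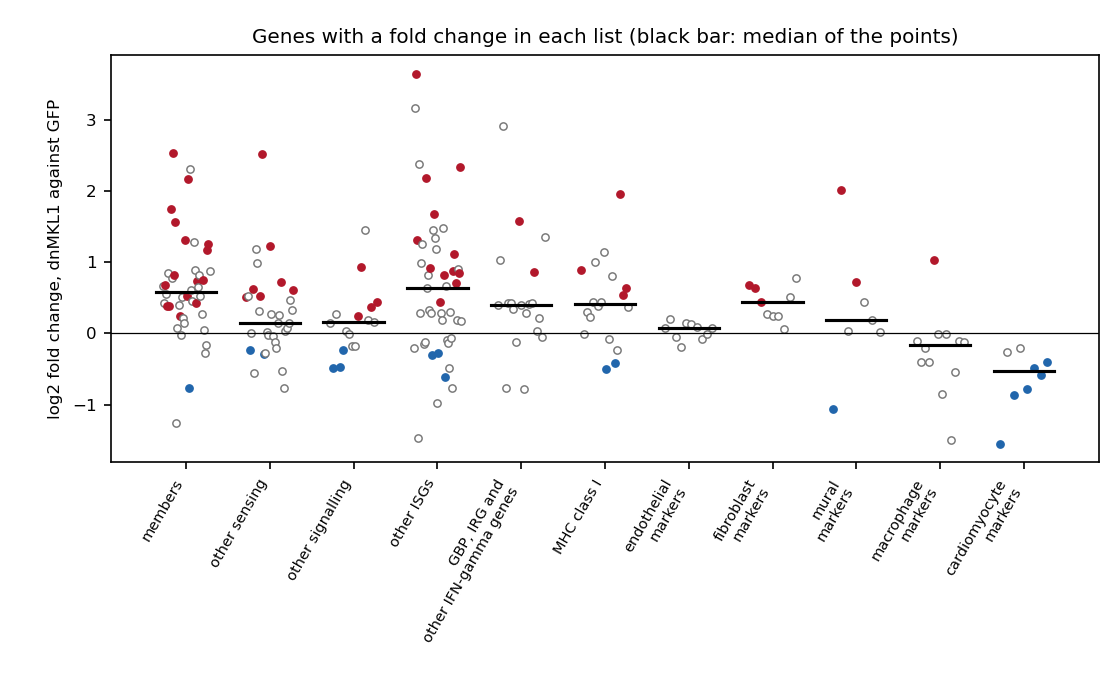
Log2 fold change (vertical axis, dnMKL1 against GFP) of the members, of 5 lists of other pathway genes and of 5 lists of cell type markers, for each gene with a fold change. Red points are higher and blue points lower by the adjusted p-value, open points were not called or not adjusted, and black bars are medians; the member median is 0.58 and all 8 cardiomyocyte markers lie below 0.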

How the data were processed

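One table was analysed, the authors' comparison of 5 dnMKL1 with 5 GFP libraries; its headers are those of DESeq2 results, and the DESeq2 version, annotation and strand setting are not given in the sources used here. The submitters' processing notes name STAR 2.5.3a, featureCounts, Subread 1.5.2 and mm10. The deposited base mean is a signal, the normalized count averaged over libraries. Depth per library is not listed. Deposited fold changes and SEs are log2 values, and the deposited Wald score is their quotient. The deposited adjusted p-values (Benjamini-Hochberg, 14056 genes) were used as listed, with 0.05 as threshold. The table names no direction, which was read from Mkl1 (log2 fold change 9.80, higher with dnMKL1). Implied means assume that both groups count equally in the base mean. Intervals are the fold change ± 1.96 SE, and 3 normalized counts served as floor.

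Older symbols were matched through RefSeq synonyms, and lengths and exon overlaps came from the reference annotation. Members that were called or had a base mean of at least 100 are given in full. From every other list, up to 5 called genes with the smallest adjusted p-values and the 2 most abundant are named, except for some that are not reported here; Ube2l6, Cgas, Ifit3b and single markers were chosen after their values were seen. Members and lists were chosen with earlier results of these data known. The calculations were tested on simulated data and used Python 3.11.15, pandas 2.3.3 and scipy 1.17.1.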

Additional observations from a re-analysis of the deposited data

How the results depend on the processing

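No paired analysis was possible because only group comparisons, without values per library, were at hand. Fits that leave out a replicate, use a replicate block or use edgeR were not run for that reason, and whether 1 library decides a value is unknown. The 16 higher members became 12 at an adjusted p under 0.01, 19 under 0.1, 15 with adjustment over every p-value, and 17 with a base mean of at least 10 or with the median gene centred. They became 7 among genes with base means from 100 up, and 7 at a log2 change of at least 1 in size. Fewer genes can pass at these settings. With the same total in both groups they became 28, where 40.4% of all genes tested were higher and 6.60% lower. Shares over all genes at the other settings are not given, so those counts are not set against all genes. The 1 lower member became 0 at a change of at least 1. Other pathway genes went from 29 higher to 17 with a base mean of at least 100, 10 at a change of at least 1 and 53 with the same total. Their 10 lower genes became 5 at an adjusted p under 0.01, 2 at a change of at least 0.5, 0 at a change of at least 1 and 1 with the same total. Ifnar2 turned to 0.26 and Trim25 to 0.12 with the same total, and Ifnar2 to 0.0019 with the median gene centred, by the added shift alone. The member median ran from 0.32 (base mean of at least 100) to 0.87 (same total). It was 0.55 over the 39 members without Mx1, Ifitm1 and Zbp1, which were under 3 normalized counts in both groups. That alternative was chosen after seeing the data. Low counts limit Isg15, Ifit3, Ifi44, Dhx58, the OAS genes and Mx2.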
